A study of Mus musculus with 18 samples.

Results

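The genes described here are 46 genes of 2 stress programmes, followed in WEHI-231 cells over a stimulation of the B cell receptor (BCR). They were taken by name from a list and matched to the Ensembl genes in the count tables, 46 of 55487 genes. The chaperone arm holds 23 genes of the unfolded protein response, and the ATF4 arm holds 23 genes of the amino acid response. Of the 46 genes, 45 had enough counts to be tested, all 23 of the chaperone arm and 22 of the ATF4 arm. Atf3, a transcription factor induced by many stresses, was left out with 0 to 8 counts per library.

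WEHI-231 is a mouse line of immature B cell lymphoma, which carries a BCR of the IgM class. RNA was sequenced from parental cells (labelled wt) and from the mutant clones TFEB KO #A-59 and TFEB KO #B-20, here A-59 and B-20. Both clones were made with Cas9 and guide RNAs against exons of Tfeb, a transcription factor of lysosomal and autophagy genes, and grown from single cells, so that a mutation and the history of 1 clone cannot be told apart. Cells were left untreated (0 h) or stimulated with 10 µg/ml of F(ab')2 fragments against IgM for 6 or 18 h, which gave 9 groups of 2 libraries from 2 independent experiments, 18 libraries in all. Untreated cells are the control of each genotype.

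The libraries held between 11223588 and 29655262 counts each (median 19846544). Tfeb mRNA stood between 79.2 and 99.9 CPM (counts scaled to library size) in the 6 parental libraries, between 25.5 and 40.5 CPM in A-59 and between 34.2 and 54.1 CPM in B-20, so that neither clone overlapped the parental cells. The 8 B cell markers were all expressed, led by Ighm with 2430 to 4730 CPM. The 5 T cell markers summed to at most 0.882 CPM. Of the 5 myeloid markers, S100a8 was at 0 in all 18 libraries, Cd14 in 17 and Lyz2 in 16, and only Itgam went above 2.16 CPM, with 26.1 and 26.3 CPM in A-59 at 18 h. Of the 5 plasma cell markers, Tnfrsf17 stayed at or below 0.0518 CPM and Prdm1 at or below 0.218 CPM. Sdc1 reached 4.22 CPM and Jchain 7 CPM, and Irf4 stood between 45.7 and 163 CPM.

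The unfolded protein response starts at sensors in the membrane of the endoplasmic reticulum (ER). Ern1 encodes IRE1, which splices the Xbp1 mRNA, Atf6 encodes a transcription factor held in the membrane until it is cleaved, and Eif2ak3 encodes the kinase PERK. XBP1 and ATF6 raise chaperones, disulfide isomerases and the machinery of ER-associated degradation. PERK phosphorylates the initiation factor eIF2, as does GCN2 when uncharged tRNAs accumulate, and the phosphorylation favours translation of ATF4. ATF4 in turn drives genes of amino acid synthesis and import, one-carbon metabolism and stress feedback. Differentiating plasma cells are a well-known setting of the first programme, since secreted antibody is folded in the ER.

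The arms differ in the DNA motifs of their promoters, and the promoters below are shown because their genes carry the responses described later. The ER stress element (ERSE) reads CCAAT, 9 bases, CCACG, and ERSE-II reads ATTGG, 1 base, CCACG. The C/EBP-ATF response element (CARE), a site of ATF4, was searched as TGATGNAAN. Each motif was searched on both strands of the 250 bases before the start in the RefSeq annotation of GRCm38.p6, of which 40 of the 46 genes had a window. ERSE was found in 9 of 19 chaperone arm genes (47.4%), in 0 of 21 ATF4 arm genes and in 0.113% of all 32851 windows. The 9 genes were Calr, Canx, Creld2, Derl3, Dnajc3, Hsp90b1, Hspa5, Pdia6 and Syvn1. ERSE-II was found in Herpud1 alone among the 46 genes, and in 0.0304% of all windows. CARE was found in 5 of 21 ATF4 arm genes (23.8%), namely Asns, Atf3, Chac1, Pycr1 and Slc7a11, and in 3.44% of all windows. One chaperone arm gene, Herpud1, also held a CARE match. The XBP1 motif TGACGTGG was found in 0 of the 40 genes and in 0.563% of all windows. The E-box CACGTG, the core read by TFEB and by many other factors, was found in Calr, Derl3, Dnajb9 and Aldh18a1, and in 6.02% of all windows. A match is a description of these letters and not evidence of binding.

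Capitals mark the motif in each of the following 250-base windows, written 5′ to 3′ on the strand of the gene. Asns, Chac1 and Pycr1 were called in the same direction in several comparisons and hold a CARE match. Hspa5 and Herpud1, with ERSE and ERSE-II in capitals, were added after their values were seen, as the chaperone arm genes with a motif that fell most. The CARE match of Asns lies at positions -23 to -15 from the start, that of Chac1 at -194 to -186 on the opposite strand and that of Pycr1 at -103 to -95. The ERSE match of Hspa5 lies at -65 to -47 and the ERSE-II match of Herpud1 at -52 to -42.
Asns, chr6:7693210-7693459, minus strand: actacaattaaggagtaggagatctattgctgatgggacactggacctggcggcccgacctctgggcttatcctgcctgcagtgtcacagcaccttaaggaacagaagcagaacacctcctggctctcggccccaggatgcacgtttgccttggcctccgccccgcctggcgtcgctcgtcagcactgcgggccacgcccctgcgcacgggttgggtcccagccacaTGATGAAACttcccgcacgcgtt
Chac1, chr2:119350992-119351241, plus strand: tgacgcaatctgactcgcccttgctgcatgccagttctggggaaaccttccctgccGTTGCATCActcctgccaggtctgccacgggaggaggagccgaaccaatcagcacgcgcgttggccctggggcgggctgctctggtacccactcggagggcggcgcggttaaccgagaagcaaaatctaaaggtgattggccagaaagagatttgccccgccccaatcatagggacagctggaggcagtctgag
Pycr1, chr11:120643749-120643998, minus strand: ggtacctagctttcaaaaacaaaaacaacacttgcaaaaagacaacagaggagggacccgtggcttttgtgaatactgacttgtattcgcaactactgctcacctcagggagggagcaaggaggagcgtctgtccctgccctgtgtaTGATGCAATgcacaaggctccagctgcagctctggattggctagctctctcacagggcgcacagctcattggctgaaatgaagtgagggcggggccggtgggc
Hspa5, chr2:34771840-34772089, plus strand: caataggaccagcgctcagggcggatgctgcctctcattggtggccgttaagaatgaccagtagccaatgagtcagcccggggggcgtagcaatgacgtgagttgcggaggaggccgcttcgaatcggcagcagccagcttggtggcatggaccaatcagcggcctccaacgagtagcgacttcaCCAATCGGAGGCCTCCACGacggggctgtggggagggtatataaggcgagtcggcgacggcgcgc
Herpud1, chr8:94386179-94386428, plus strand: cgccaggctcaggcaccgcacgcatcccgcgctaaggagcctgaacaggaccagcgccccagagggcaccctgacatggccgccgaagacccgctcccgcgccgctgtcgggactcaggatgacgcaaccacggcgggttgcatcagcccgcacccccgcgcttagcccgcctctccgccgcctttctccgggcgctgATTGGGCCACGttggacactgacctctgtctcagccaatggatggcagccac

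In untreated parental cells the luminal chaperones were the most abundant of the 46 mRNAs. Per kilobase of the longest annotated transcript, Calr, a lectin chaperone, stood at 415 CPM, Hsp90b1, the HSP90 of the ER, at 317 CPM, and Hspa5, the HSP70 chaperone BiP, at 208 CPM (means of 2 libraries). Among the ATF4 arm, Shmt2, the mitochondrial enzyme that converts serine to glycine, reached 184 CPM per kilobase and Psat1, of serine synthesis, 169 CPM per kilobase. Chac1, an enzyme that degrades glutathione, stood at 5.39 CPM per kilobase and Slc7a11, the cystine transporter, at 0.0246 CPM per kilobase. All values below are CPM per gene, not corrected for length, and compare a gene only with itself.

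In parental cells 5 of 23 chaperone arm genes had risen at 6 h of stimulation at an FDR under 0.01, where 3.1% of all genes had. In the ATF4 arm only Ddit3 had. At 18 h 15 of 22 ATF4 arm genes and 5 of 23 chaperone arm genes had fallen at an FDR under 0.01, where 16.2% of all genes had. The share that fell in the chaperone arm at 18 h is thus near that of all genes. Fewer cells that express a gene and less mRNA per cell cannot be told apart in these bulk libraries. A gene was called when its FDR was under 0.01 and its log2 fold change above 1 or below -1, by the quasi-likelihood test of edgeR, with p-values adjusted over the 15318 genes tested (Benjamini-Hochberg). Genes with an FDR under 0.01 at any fold change are described as having risen or fallen, and log2 fold changes are given ± SE. Where libraries of such genes are said to lie apart, this describes values that the test already used and is no further support. The share of all genes whose libraries lie apart was not counted. At 6 h, 1 of 45 genes was called higher (Ddit3) and 0 lower, where 1.17% of all genes were called higher and 1.46% lower. At 18 h, 1 of 45 was called higher (Ddit4) and 10 lower, where 5.56% of all genes were called higher and 4.75% lower. All 11 genes called at 18 h belong to the ATF4 arm, which makes 11 of 22. In the chaperone arm edgeR called 0 of 23 at either time, DESeq2 also 0, and 16 genes at 6 h and 15 at 18 h had an unadjusted p under 0.05.

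**Figure D1:**
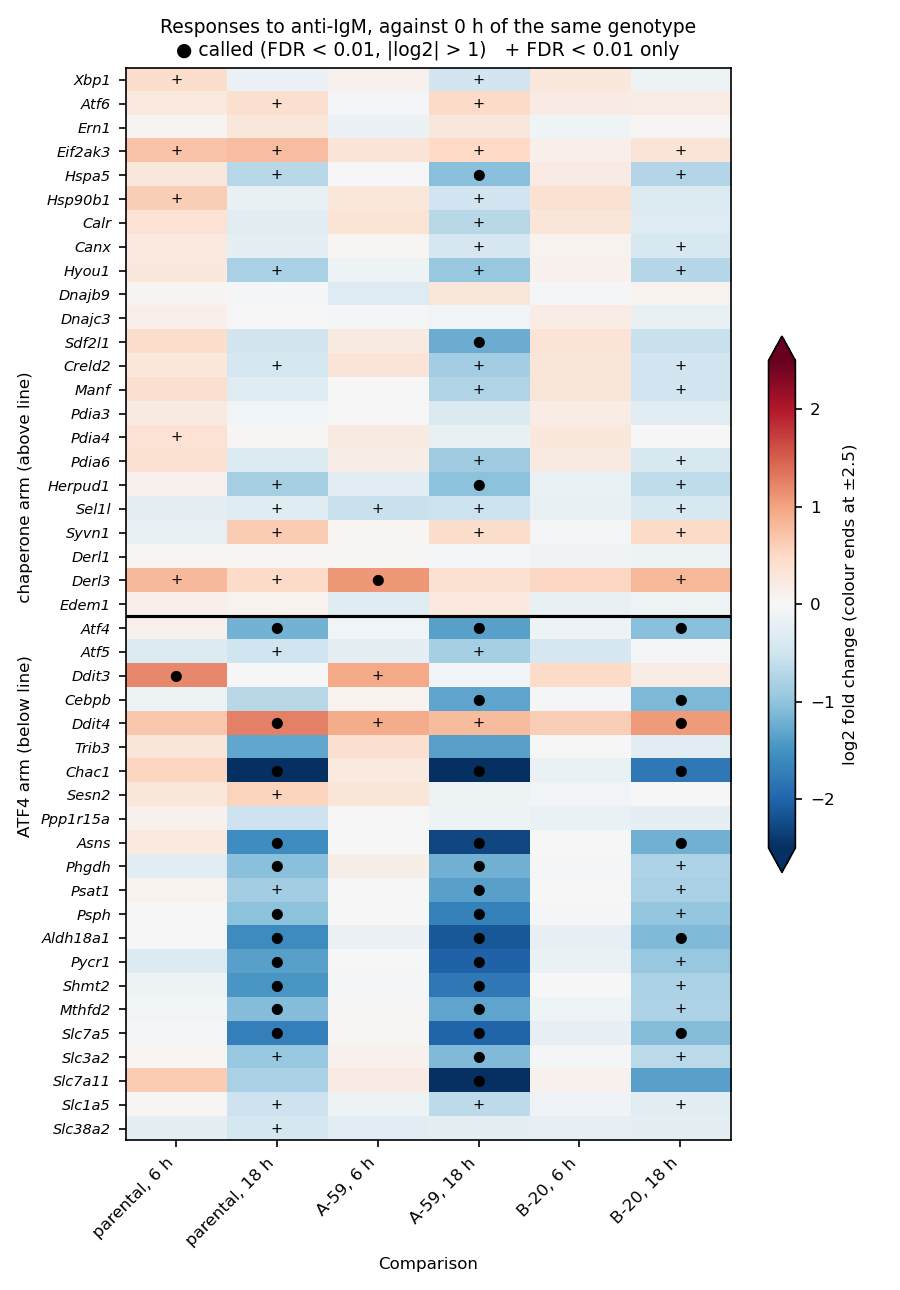
Log2 fold change of the 45 tested genes (rows) in each genotype at 6 and 18 h against 0 h of that genotype (columns), as colour, with the chaperone arm above the line and the ATF4 arm below it. Filled circles mark called genes and plus signs genes with an FDR under 0.01 only. Most of the called genes sit in the ATF4 arm at 18 h, with 11 for parental cells, 14 for A-59 and 7 for B-20. Slc7a11 in A-59 at 18 h has 0 counts, and its colour is a fitted value, not a bound.

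Atf4 itself was level at 6 h and low at 18 h in parental cells. Its mRNA stood at 294 and 268 CPM at 0 h, at 310 and 298 CPM after 6 h, and at 126 and 122 CPM after 18 h. Both libraries at 18 h lay below every library at the earlier times. The change at 18 h was -1.18 ± 0.08 (adjusted p = 4.94e-09), and that at 6 h was 0.11 ± 0.08 (adjusted p = 0.418). Cebpb, which encodes a partner of ATF4, did not pass in parental cells with 7.81 and 10.6 CPM at 0 h and 3.48 and 7.36 CPM after 18 h, which do not overlap (-0.69 ± 0.33, adjusted p = 0.105). Atf5, a related factor, fell at 18 h by 0.50 on the log2 scale without being called.

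Ddit3, which encodes the proapoptotic factor CHOP, was the member called at 6 h. It stood at 15.4 and 14.7 CPM at 0 h, at 30.7 and 38.5 CPM after 6 h and at 13.6 and 16.2 CPM after 18 h in parental cells. The libraries at 6 h lay apart from all others, and the level at 18 h overlapped that at 0 h. The log2 fold change was 1.2 ± 0.16 after 6 h (adjusted p = 3.77e-05) and 0.00 ± 0.17 after 18 h (adjusted p = 0.991). Of the annotated exon bases of Ddit3, 64.1% overlap those of Mars1 (Mars in the count tables), a methionyl-tRNA synthetase gene on the other strand, and the libraries do not keep the strand. Mars1 did not pass the test at 6 h (-0.06 ± 0.13, adjusted p = 0.863) and fell at 18 h by 1.17 on the log2 scale, and the part of its reads in the Ddit3 counts was not tested. A second Ensembl entry named Ddit3 had 0 counts in all libraries.

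Stress feedback genes of the ATF4 arm went in both directions. Chac1 stood at 15 and 11 CPM at 0 h, at 19.7 and 18.0 CPM after 6 h and at 1.87 and 2.18 CPM after 18 h in parental cells, where 18 h rests on 21 and 42 counts. Its libraries at 18 h lay far below the rest, and it had the largest decrease of the 45 genes in parental cells (-2.66 ± 0.33, adjusted p = 8.08e-06). Ddit4, which encodes the mTORC1 inhibitor REDD1, was the only member called higher at 18 h. It went from 187 and 206 CPM at 0 h to 279 and 353 CPM after 6 h and 407 and 534 CPM after 18 h, with no overlap between the times (1.26 ± 0.18 at 18 h, adjusted p = 3.4e-05). Sesn2, another inhibitor of mTORC1 signalling, rose at 18 h by 0.56 on the log2 scale without being called. Trib3, a pseudokinase that feeds back on ATF4, stood at 29.9 and 24.6 CPM at 0 h and at 11.1 and 11.1 CPM after 18 h, which did not overlap but did not pass the test (-1.30 ± 0.47, adjusted p = 0.048). It was called with the replicate number as a block (-1.25, adjusted p = 0.000722, or 0.00234 with the GC correction added), with only the libraries compared (adjusted p = 9.3e-07) and without either B-20 library at 18 h. Ppp1r15a, the phosphatase subunit that reverses eIF2 phosphorylation, did not pass at either time.

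Amino acid synthesis was the group that fell as a whole, with all 8 genes lower at an FDR under 0.01 and 7 of them called in parental cells at 18 h (median -1.22). Asns, asparagine synthetase, stood at 98.3 and 84.3 CPM at 0 h, at 108 and 110 CPM after 6 h and at 28.7 and 33.5 CPM after 18 h. Aldh18a1, the first enzyme of proline synthesis from glutamate, stood at 170 and 155 CPM at 0 h, at 165 and 162 CPM after 6 h and at 55.9 and 53.0 CPM after 18 h. In both genes the 18 h libraries were separated from all earlier ones. The log2 fold changes at 18 h were -1.55 ± 0.10 for Asns and -1.58 ± 0.10 for Aldh18a1 (adjusted p = 2.58e-09 for each). Pycr1, the last enzyme of proline synthesis, went from 23.4 and 19.4 CPM at 0 h to 7.58 and 8.97 CPM after 18 h (-1.36 ± 0.18, adjusted p = 6.38e-06).

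The serine and one-carbon enzymes followed the same course. Shmt2 stood at 568 and 522 CPM at 0 h and at 192 and 204 CPM after 18 h (-1.46 ± 0.10, adjusted p = 4.62e-09). Phgdh, the entry enzyme of serine synthesis, stood at 112 and 112 CPM at 0 h and at 52.4 and 56.3 CPM after 18 h (-1.04 ± 0.09, adjusted p = 9.71e-08). For Psph, the last enzyme of serine synthesis, the values were 131 and 118 CPM at 0 h and 58.4 and 63.0 CPM after 18 h (-1.03 ± 0.10, adjusted p = 1.69e-07). The libraries of none of these genes overlapped between 0 and 18 h. Of the exon bases of Psph, 6.32% overlap Cct6a on the other strand (192477 counts in all against 40448). Mthfd2, a mitochondrial folate enzyme, went from 265 and 226 CPM to 123 and 109 CPM (-1.08 ± 0.11, adjusted p = 2.07e-07). Psat1 went from 498 and 462 CPM to 266 and 261 CPM and was just short of the fold threshold (-0.87 ± 0.08, adjusted p = 9.31e-08). Psph and Mthfd2 were close to that threshold too, and without the first parental library at 0 h their values were -0.98 and -0.99.

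Of the 5 transporters, 4 fell and 1 was called. Slc7a5, the light chain of the leucine transporter LAT1, stood at 363 and 346 CPM at 0 h, at 342 and 346 CPM after 6 h and at 107 and 111 CPM after 18 h in parental cells (-1.71 ± 0.12 at 18 h, adjusted p = 5.11e-09). Its heavy chain Slc3a2 went from 194 and 181 CPM at 0 h to 98.1 and 97.7 CPM after 18 h (-0.94 ± 0.09, adjusted p = 1.76e-07). Both chains were thus low together, with separate libraries at 0 and 18 h. Of the exon bases of Slc3a2, 15.9% overlap Snhg1 on the other strand (35898 counts in all against 61332). The glutamine carriers Slc1a5 and Slc38a2 fell by 0.51 and 0.44 on the log2 scale. Slc7a11 had 0 to 11 counts in the parental libraries and did not pass.

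The chaperone arm lay mostly on the higher side at 6 h, and at 18 h it moved in both directions and less than the ATF4 arm. At 6 h, 21 of 23 genes had a positive log2 fold change in parental cells (median 0.26, against 0.008 over all genes), and 5 rose at an FDR under 0.01, which 3.1% of all genes did. They were the sensor gene Eif2ak3 (0.72 ± 0.08, adjusted p = 5.64e-06), Xbp1 (0.44 ± 0.08, adjusted p = 0.0011), Hsp90b1 (0.61 ± 0.10, adjusted p = 0.000509), the disulfide isomerase Pdia4 (0.36 ± 0.07, adjusted p = 0.00207) and Derl3. Eif2ak3 stood at 33.0 and 33.3 CPM at 0 h, at 54.8 and 54.5 CPM after 6 h and at 56.6 and 56.8 CPM after 18 h, so that it kept its level at 18 h. Xbp1 went from 168 and 165 CPM at 0 h to 235 and 218 CPM after 6 h and 147 and 156 CPM after 18 h. Derl3, a channel component of ER-associated degradation, stood at 104 and 97.9 CPM at 0 h, at 175 and 179 CPM after 6 h and at 142 and 141 CPM after 18 h (0.81 ± 0.12 at 6 h, adjusted p = 0.000113). The counts of Xbp1 do not separate its spliced from its unspliced form. Of its exon bases, 22% overlap Ccdc117 on the other strand (16519 counts in all against 59346).

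At 18 h the folding genes lay on the lower side and the sensors and degradation genes on both sides. Of the 13 chaperones and folding enzymes 12 had a negative log2 fold change in parental cells (median -0.29) and 3 fell, Hspa5, Hyou1 and Creld2. Hspa5 stood at 999 and 1070 CPM at 0 h, at 1260 and 1280 CPM after 6 h and at 636 and 640 CPM after 18 h (-0.70 ± 0.12 at 18 h, adjusted p = 0.000123). The 3 times did not overlap, with the highest level at 6 h, where the difference from 0 h did not pass the test (0.29 ± 0.12, adjusted p = 0.131). Hyou1, a nucleotide exchange factor of BiP, went from 277 and 289 CPM at 0 h to 161 and 160 CPM after 18 h (-0.82 ± 0.12, adjusted p = 1.55e-05). Atf6 (0.40 ± 0.08, adjusted p = 0.000376) and Eif2ak3 (0.77 ± 0.08, adjusted p = 5.69e-07) rose. In the degradation group Syvn1, the ubiquitin ligase HRD1, rose (0.63 ± 0.08, adjusted p = 5.76e-06), whereas Herpud1, a membrane partner of HRD1, fell from 90.8 and 95.3 CPM to 50 and 54.7 CPM (-0.83 ± 0.10, adjusted p = 2.65e-06) and Sel1l, the adaptor of HRD1, fell by 0.31 on the log2 scale. Over the arm, 4 genes rose and 5 fell, where 16.4% and 16.2% of all genes did.

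**Figure D2:**
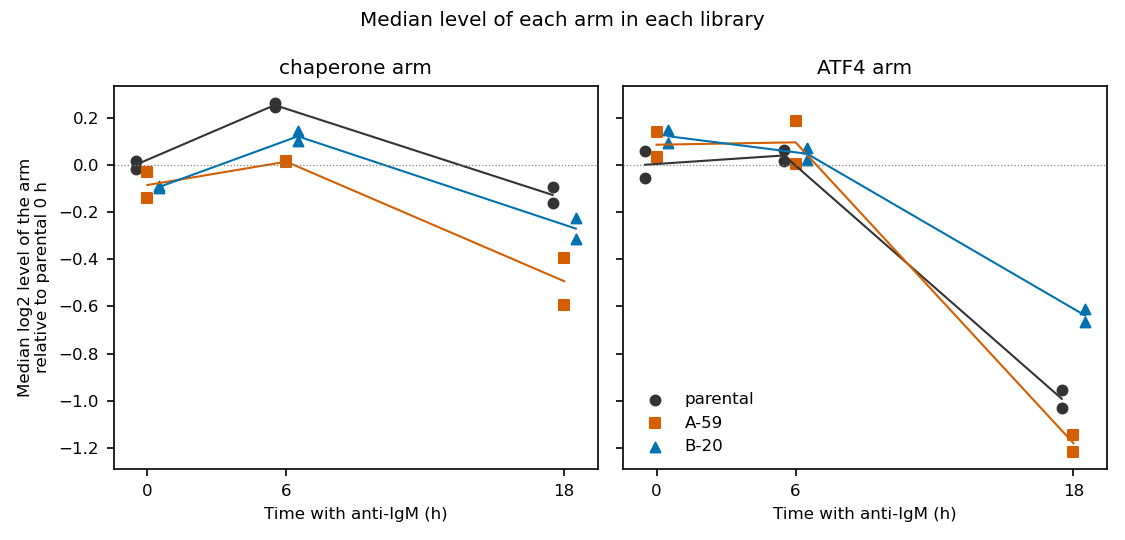
Median over the genes of each arm of the log2 level in each library relative to the mean of the parental libraries at 0 h, against the hours of stimulation. Points are libraries (points of the 3 genotypes are shifted sideways) and lines join the means of 2 libraries. In the ATF4 arm all libraries lie between -0.057 and 0.186 at 0 and 6 h and fall at 18 h, least in B-20 (-0.611 and -0.666). In the chaperone arm the parental libraries at 6 h are the highest (0.246 and 0.26).

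Set beside each other, the medians of the chaperone and the ATF4 arm in parental cells were 0.26 and 0.03 at 6 h and -0.14 and -0.99 at 18 h. In A-59 they were 0.02 and 0.01 at 6 h and -0.42 and -1.33 at 18 h, and in B-20 they were 0.19 and -0.06 at the earlier time and -0.29 and -0.79 at the later one. The median over all genes lay between 0.008 and 0.043 in these 6 comparisons. Hence the ATF4 arm was lower than the chaperone arm at 18 h in each genotype, by 0.85 in parental cells. These medians describe genes that share libraries and regulators, and they carry no test.

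In the clones the ATF4 arm fell at 18 h as well, further in A-59 and less in B-20. In A-59 at 18 h, 17 of 45 genes were called lower and 0 higher, where 4.59% of all genes were called lower and 4.17% higher. They were 14 of the 22 ATF4 arm genes and 3 of the 23 chaperone arm genes. In B-20 at 18 h, 6 genes were called lower and 1 higher, all in the ATF4 arm, where 1.87% and 2.93% of all genes were called. At 6 h the only call was Derl3 in A-59, where 0.594% of all genes were called higher. In B-20 at 6 h edgeR called 0 of 45 and DESeq2 0, 13 had an unadjusted p under 0.05, and 0.385% of all genes were called. Aldh18a1, Asns, Atf4, Chac1 and Slc7a5 were called lower at 18 h in all 3 genotypes. In all 3, 13 ATF4 arm genes had an FDR under 0.01 and a lower level. Of all genes, at most 1.87% and 11.4%, the shares in B-20 alone, can have met these rules in all 3 genotypes. The joint share was not counted.

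Asns stood at 111 and 113 CPM at 0 h, 111 and 111 CPM after 6 h and 21.7 and 24.4 CPM after 18 h in A-59 (-2.28 ± 0.10 at 18 h, adjusted p = 1.01e-10). In B-20 it stood at 126 and 124 CPM at 0 h, 121 and 128 CPM after 6 h and 54.6 and 53.6 CPM after 18 h (-1.21 ± 0.09, adjusted p = 1.1e-07). The 3 genotypes were thus separate at 18 h, lowest in A-59 and highest in B-20. Aldh18a1 had the same order, with 155 and 143 CPM at 0 h and 31.9 and 36.9 CPM after 18 h in A-59 (-2.11 ± 0.10, adjusted p = 2.15e-10). In B-20 it went from 164 and 164 CPM to 74.8 and 78.5 CPM (-1.10 ± 0.10, adjusted p = 3.78e-07).

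Chac1 was called lower in both clones with unequal values. In A-59 it went from 20.9 and 18.1 CPM at 0 h to 1.10 and 1.09 CPM after 18 h, which rest on 21 and 18 counts (-4.15 ± 0.35, adjusted p = 1.66e-07). In B-20 it went from 19.1 and 19 CPM to 7.39 and 3.54 CPM (-1.79 ± 0.27, adjusted p = 8.7e-05), and these 2 libraries differed by more than those of the other genotypes. Slc7a5 went from 360 and 320 CPM to 78.3 and 91.2 CPM in A-59 (-2.00 ± 0.12, adjusted p = 1.39e-09) and from 350 and 401 CPM to 165 and 187 CPM in B-20 (-1.09 ± 0.11, adjusted p = 1.64e-06, or -0.99 without the second B-20 library at 0 h). Atf4 went from 309 and 289 CPM to 115 and 121 CPM in A-59 (-1.35 ± 0.08, adjusted p = 1.42e-09) and from 316 and 319 CPM to 148 and 160 CPM in B-20 (-1.05 ± 0.08, adjusted p = 1.1e-07). Atf4 at 18 h spanned 115 to 160 CPM over the 6 libraries of the 3 genotypes, and Asns 21.7 to 54.6 CPM.

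Shmt2 fell from 551 and 478 CPM to 143 and 157 CPM in A-59 (-1.78 ± 0.10, adjusted p = 9.02e-10). In B-20 it fell from 558 and 592 CPM to 332 and 331 CPM (-0.79 ± 0.10, adjusted p = 7.24e-06), less than the fold threshold. Pycr1 went from 22.9 and 17.4 CPM to 4.61 and 5.37 CPM in A-59 (-2.03 ± 0.19, adjusted p = 1.38e-07) and from 24.4 and 20.4 CPM to 12.2 and 11.1 CPM in B-20 (-0.94 ± 0.17, adjusted p = 0.00027). The remaining synthesis genes Phgdh, Psat1, Psph and Mthfd2 were called in A-59 with log2 fold changes between -1.68 and -1.21, and all 4 fell in B-20 with values between -0.96 and -0.77. Per library at 18 h they stood at 44.8 and 50 CPM (Phgdh), 192 and 198 CPM (Psat1), 38.0 and 42.8 CPM (Psph) and 103 and 105 CPM (Mthfd2) in A-59. In B-20 the values were 60.8 and 67.6, 321 and 313, 67.1 and 73.4, and 173 and 176 CPM in the same order of genes, so that each of the 4 genes was higher in both B-20 libraries than in both A-59 libraries.

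Slc3a2 was called in A-59 as well, from 184 and 175 CPM at 0 h to 81.8 and 84.5 CPM after 18 h (-1.11 ± 0.09, adjusted p = 3.9e-08), and stood at 120 and 120 CPM in B-20 at 18 h. Cebpb, of whose exon bases 20.7% overlap Peds1 on the other strand (12554 counts in all against 3953), was called in both clones at 18 h. It went from 13.9 and 13.3 CPM to 4.03 and 7.06 CPM in A-59 (-1.31 ± 0.32, adjusted p = 0.00371) and from 12 and 18.7 CPM to 7.21 and 6.94 CPM in B-20 (-1.12 ± 0.30, adjusted p = 0.00957). These calls rest on few CPM, and the call was lost in A-59 without either library at 0 h or the first library at 18 h (-0.97), and in B-20 without any single library of A-59 at 0 or 6 h or of B-20 at 6 or 18 h, or the second of B-20 at 0 h (-0.76). Slc7a11 had 14 and 11 counts at 0 h and 0 counts in both libraries of A-59 at 18 h. Against a floor of 3 counts per library it was at least 3.09-fold lower (adjusted p = 0.0026). The adjusted p was 0.0287 and 0.0183 without the first or the second of these libraries.

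Ddit4 rose in both clones, and Ddit3 rose at 6 h in A-59. Ddit4 stood at 237 and 181 CPM at 0 h, 429 and 362 CPM after 6 h and 368 and 363 CPM after 18 h in A-59, and rose at both times without being called (0.80 ± 0.18 at 18 h, adjusted p = 0.00166). In B-20 it stood at 181 and 144 CPM at 0 h, 259 and 239 CPM after 6 h and 389 and 290 CPM after 18 h (1.06 ± 0.18 at 18 h, adjusted p = 0.000289). Without the first B-20 library at 18 h or the second at 0 h the value was no longer called (0.81 and 0.91), nor was it with the GC correction (0.84, with or without the replicate block). Ddit3 stood at 16.2 and 17.4 CPM at 0 h and 34.4 and 30.3 CPM after 6 h in A-59 (0.95 ± 0.16, adjusted p = 0.000682), and at 13.1 and 18.3 CPM and 19.1 and 24.9 CPM in B-20, where it did not pass (0.48 ± 0.17, adjusted p = 0.164). At 18 h Ddit3 did not pass in either clone (-0.07 ± 0.17 in A-59 and 0.19 ± 0.17 in B-20). Trib3 did not pass in A-59 at 18 h (-1.36 ± 0.45, adjusted p = 0.032). There it was called with DESeq2 (-1.35, adjusted p = 0.00851), with only the libraries compared (adjusted p = 0.00819), with the replicate block (-1.34, adjusted p = 0.000272, or 0.00113 with the GC correction added) and without either B-20 library at 18 h. In B-20 it did not pass (-0.29 ± 0.44), and its libraries at 18 h were far apart at 30.9 and 11.5 CPM.

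**Figure D3:**
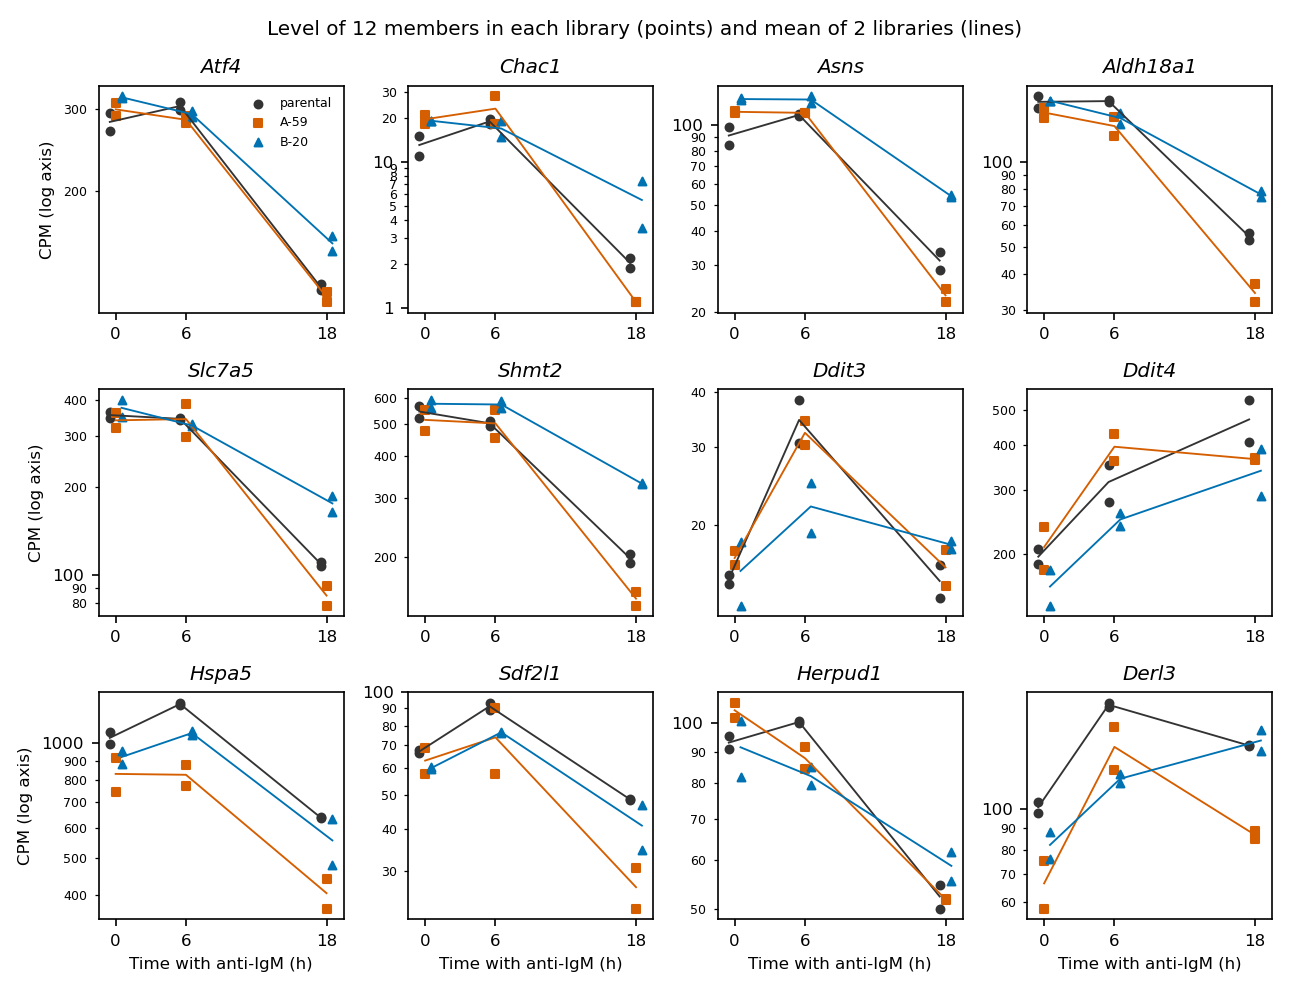
CPM on a log axis of 12 members in each of the 18 libraries against the hours of stimulation. Points are libraries (genotypes shifted sideways) and lines join the means of 2 libraries. At 18 h Asns, Aldh18a1, Shmt2 and Slc7a5 are lowest in A-59 and highest in B-20, whereas the 6 h level of Hspa5 is lowest in A-59 (774 and 880 CPM).

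The chaperone arm of A-59 was called lower at 18 h in 3 genes, and 12 of 23 fell, where 17.1% of all genes did. Hspa5 went from 746 and 917 CPM at 0 h to 774 and 880 CPM after 6 h and 367 and 440 CPM after 18 h (-1.04 ± 0.12 at 18 h, adjusted p = 2e-06). Sdf2l1, a cofactor of BiP, went from 68.7 and 57.7 CPM at 0 h to 90.2 and 57.6 CPM after 6 h and 23.3 and 30.6 CPM after 18 h (-1.24 ± 0.18, adjusted p = 3.5e-05). Herpud1 went from 102 and 108 CPM at 0 h to 91.4 and 84.2 CPM after 6 h and 51.7 and 51.9 CPM after 18 h (-1.02 ± 0.10, adjusted p = 2.84e-07). In each of the 3 genes both libraries at 18 h were below all earlier ones of A-59. Herpud1 and Hspa5 were near the fold threshold, and their calls depended on single libraries and, for Herpud1, on settings. Without the second library of A-59 at 0 h the values were -0.98 for Herpud1 and -0.89 for Hspa5, and Hspa5 also lost its call without the first library at 18 h (-0.94). Herpud1 also lost its call with at least 10 counts required in every library and with the GC correction (-0.98, or -0.97 with the block). Of the exon bases of Hspa5, 44.2% overlap Rabepk, whose total count was 9113 against 319138 for Hspa5.

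Derl3 at 6 h in A-59 went from 75.1 and 57.8 CPM to 157 and 124 CPM, with 88.7 and 84.7 CPM after 18 h (1.08 ± 0.12 at 6 h, adjusted p = 1.41e-05). Its libraries at 0 and 6 h did not overlap, but the call was lost without the first A-59 library at 6 h or the second at 0 h (0.89 and 0.90), with only the libraries compared and with the GC correction, with or without the block. In B-20 Derl3 stood at 88.0 and 76.1 CPM at 0 h, 121 and 115 CPM after 6 h and 154 and 137 CPM after 18 h, and rose at 18 h (0.83 ± 0.12, adjusted p = 4.46e-05). Over the B-20 chaperone arm 0 genes were called at 18 h by edgeR or DESeq2, 17 had an unadjusted p under 0.05, 3 rose and 8 fell, where 11.4% of all genes did in each direction. Creld2, Herpud1, Hspa5, Hyou1 and Sel1l fell and Eif2ak3 and Syvn1 rose at 18 h in all 3 genotypes. Of all genes, at most 11.4% in each direction, the share in B-20 alone, can have done so, and the joint share was not counted. B-20 values for Hspa5 were 885 and 957 CPM at 0 h and 480 and 631 CPM after 18 h (-0.73 ± 0.12, adjusted p = 0.000149), those for Herpud1 81.9 and 101 CPM and 55.5 and 61.9 CPM (-0.64 ± 0.10, adjusted p = 7.32e-05).

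The chaperone arm genes with an ERSE match can be set beside those without one, among which Herpud1 holds an ERSE-II match. Atf6, Hyou1, Manf and Derl1, and in the ATF4 arm Slc7a5 and Slc1a5, had no window and are left out here. At 6 h in parental cells the 9 genes with a match had a median log2 fold change of 0.29 and the 10 without one of 0.18, and at 18 h the medians were -0.23 and -0.06. In A-59 the medians were 0.17 and -0.08 at 6 h and -0.48 and -0.28 at 18 h, and in B-20 they were 0.22 and 0.05 at the earlier time and -0.35 and -0.12 at the later one. The ranges overlapped in every comparison, and Syvn1 and Derl3 stood above 0 at 18 h in all genotypes with a match. In the ATF4 arm, the 4 tested genes with a CARE match (Asns, Chac1, Pycr1, Slc7a11) had a median of -1.46 in parental cells at 18 h and the 16 without one a median of -0.90. In A-59 those medians were -2.15, with Slc7a11 set to its bound, and -1.26, and in B-20 they were -1.28 and -0.73. At 6 h the medians with and without a match were 0.39 and 0.02 in parental cells, 0.10 and 0.02 in A-59 and -0.08 and -0.05 in B-20. Slc7a11 had 0 to 14 counts per library. No test was made of these differences.

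**Figure D4:**
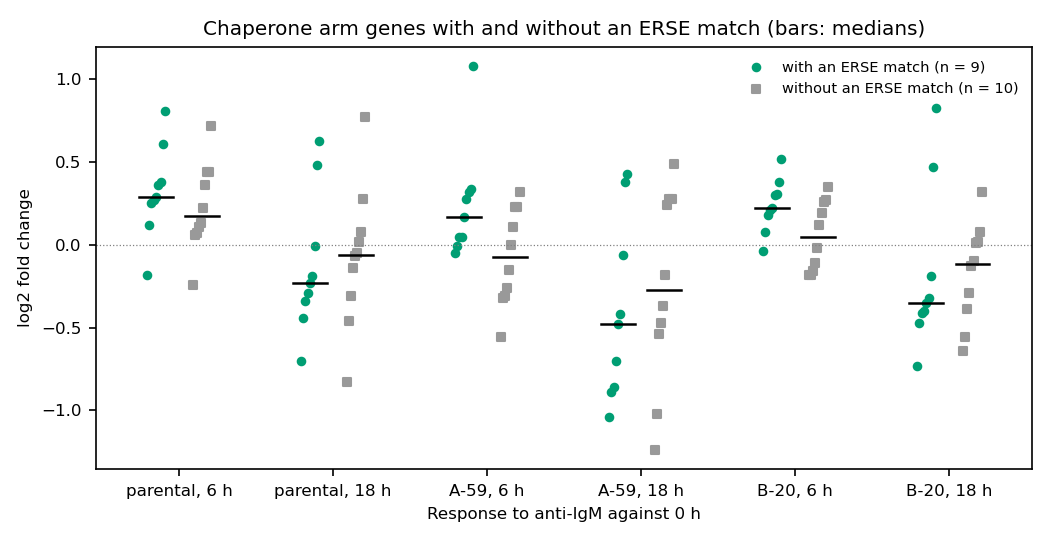
Log2 fold change of the 19 chaperone arm genes with a promoter window, in each genotype at 6 and 18 h against 0 h. Circles are the 9 genes with an ERSE match, squares the 10 without one (Herpud1, with ERSE-II, among them), and bars the medians. The groups overlap throughout, with higher medians at 6 h and lower medians at 18 h for the genes with a match.

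Compared with parental cells at the same time, A-59 had lower values in most chaperone arm genes at 6 and 18 h. No member was called in A-59 at any time by edgeR or DESeq2, with 15, 21 and 26 genes at an unadjusted p under 0.05 at 0, 6 and 18 h, where 4.78%, 7.91% and 4.92% of all genes were called. The 2 clones are compared with the same parental libraries, so their values are given side by side and an agreement of both is no independent evidence. At 6 h and an FDR under 0.01, A-59 had 8 lower chaperone arm genes and B-20 had 3, where 11.3% and 8% of all genes were. All 13 folding genes had a negative value in A-59 (median -0.38) and 11 of 13 in B-20 (median -0.24). At 18 h, 9 chaperone arm genes were lower in A-59 and 1, Creld2, in B-20, where 5.68% and 8.55% of all genes were. In A-59 2 were higher at 18 h, Atf6 (0.47 ± 0.08, adjusted p = 0.000231) and Edem1, a mannosidase-like protein of ER-associated degradation (0.48 ± 0.09, adjusted p = 0.000897), where 4.75% of all genes were, and 0 in B-20. Atf6 was higher in A-59 at 0 h too (0.39 ± 0.08, adjusted p = 0.00115).

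Xbp1 was lower in A-59 at 6 h, with 138 and 158 CPM against 235 and 218 CPM in parental cells (-0.61 ± 0.08, adjusted p = 1.49e-05). B-20 stood between them at 184 and 182 CPM, and its difference did not pass (-0.31 ± 0.08, adjusted p = 0.0112). At 18 h it was lower again in A-59 with 94.5 and 103 CPM (-0.61 ± 0.08, adjusted p = 3.51e-05). The A-59 libraries were thus below both parental ones at each of these times. Hspa5 was lower in A-59 by 0.62 ± 0.12 at 6 h (adjusted p = 0.000615) and by 0.66 ± 0.12 at 18 h (adjusted p = 0.000651) on the log2 scale, and in B-20 the differences did not pass (-0.25 ± 0.12 and -0.20 ± 0.12).

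Manf, a secreted ER stress protein, had values of -0.62 ± 0.10 at 6 h and -0.65 ± 0.10 at 18 h in A-59 and of -0.24 ± 0.10 and -0.30 ± 0.10 in B-20. Of the exon bases of Manf, 32.6% overlap Rbm15b on the same strand (24794 counts in all against 48204). Creld2, another secreted ER stress protein, was the only member lower at an FDR under 0.01 in both clones at all 3 times, with 54.4 and 60.9 CPM in A-59 and 58.2 and 55.7 CPM in B-20 at 0 h against 84.8 and 77.8 CPM in parental cells. At 0 h A-59 differed by -0.50 ± 0.12 (adjusted p = 0.00955) and B-20 by -0.51 ± 0.13 (adjusted p = 0.00735). At 18 h Creld2 stood at 60.5 and 59.2 CPM in parental cells, at 37.7 and 44.8 CPM in B-20 and at 28.5 and 35.0 CPM in A-59. Calr had negative values at 0, 6 and 18 h in both clones as well (-0.28, -0.30 and -0.69 in A-59, and -0.30, -0.36 and -0.32 in B-20), of which the one of A-59 at 18 h passed (adjusted p = 4.58e-05). Xbp1, Hspa5, Hsp90b1, Hyou1, Sdf2l1, Manf, Pdia3, Pdia4 and Pdia6 were likewise negative in all 6 comparisons. Derl3 was lower in untreated A-59 (-0.60 ± 0.12, adjusted p = 0.00144) and after 18 h in A-59 (-0.70 ± 0.12, adjusted p = 0.000345), and after 6 h in B-20 (-0.58 ± 0.12, adjusted p = 0.00126).

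By median the ATF4 arm of the clones lay close to the parental level at 0 and 6 h (0.09 and 0.11 in A-59, 0.08 and -0.06 in B-20). It went apart at 18 h, upwards in B-20. At an FDR under 0.01 single genes differed earlier. In B-20 at 0 h Asns (0.45 ± 0.09) and Slc38a2 were higher and Slc1a5 (-0.33 ± 0.08) was lower. At 6 h Ddit3 (-0.66 ± 0.16), Sesn2 (-0.52 ± 0.12) and Slc1a5 (-0.44 ± 0.08) were lower in B-20. Atf5 (0.41 ± 0.10) and Phgdh (0.39 ± 0.09) were higher in A-59 at 6 h. No member was called in B-20 at 0 or 6 h by edgeR or DESeq2, with 15 and 22 genes at an unadjusted p under 0.05, where 5.16% and 6.73% of all genes were called. At 18 h 1 member was called higher in B-20, Chac1, where 1.91% of all genes were called higher. Its 7.39 and 3.54 CPM stood against 1.87 and 2.18 CPM in parental cells (1.41 ± 0.36, adjusted p = 0.0084). The call was lost in 12 of 26 alternatives. In 11 of them 1 library was left out, either one of parental cells at 6 or 18 h, of A-59 at 0 or 18 h or of B-20 at 0 h, or the first of B-20 at 18 h, without which the value was 0.79. At an FDR under 0.01, 9 of 22 ATF4 arm genes were higher and 1 lower in B-20 at 18 h, where 5.7% and 8.55% of all genes were. In A-59 at 18 h, 6 were lower and 1 higher, where 5.68% and 4.75% were. Without the second A-59 library at 18 h, Sdf2l1 and Creld2 were called lower in A-59, each at -1.06.

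Slc38a2, the glutamine carrier SNAT2, was higher at an FDR under 0.01 in B-20 at 0, 6 and 18 h (0.41 ± 0.09, 0.42 ± 0.09 and 0.64 ± 0.09) and in A-59 at 18 h (0.51 ± 0.09). Sesn2 was lower in both clones at 18 h (-0.51 ± 0.12 in A-59 and -0.72 ± 0.12 in B-20). Sesn2 and Slc38a2 thus had the same sign in both clones, against the same parental libraries. Asns at 18 h was lower in A-59 (-0.44 ± 0.10, adjusted p = 0.0044) and higher in B-20 (0.79 ± 0.10, adjusted p = 5.93e-06) than in parental cells. Shmt2 had values of -0.40 ± 0.10 (adjusted p = 0.0066) and 0.74 ± 0.10 (adjusted p = 1.25e-05), and Aldh18a1 of -0.66 ± 0.10 (adjusted p = 0.000113) and 0.50 ± 0.10 (adjusted p = 0.00102). All 8 synthesis genes were on the negative side in A-59 (median -0.44) and on the positive side in B-20 (median 0.49).

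**Figure D5:**
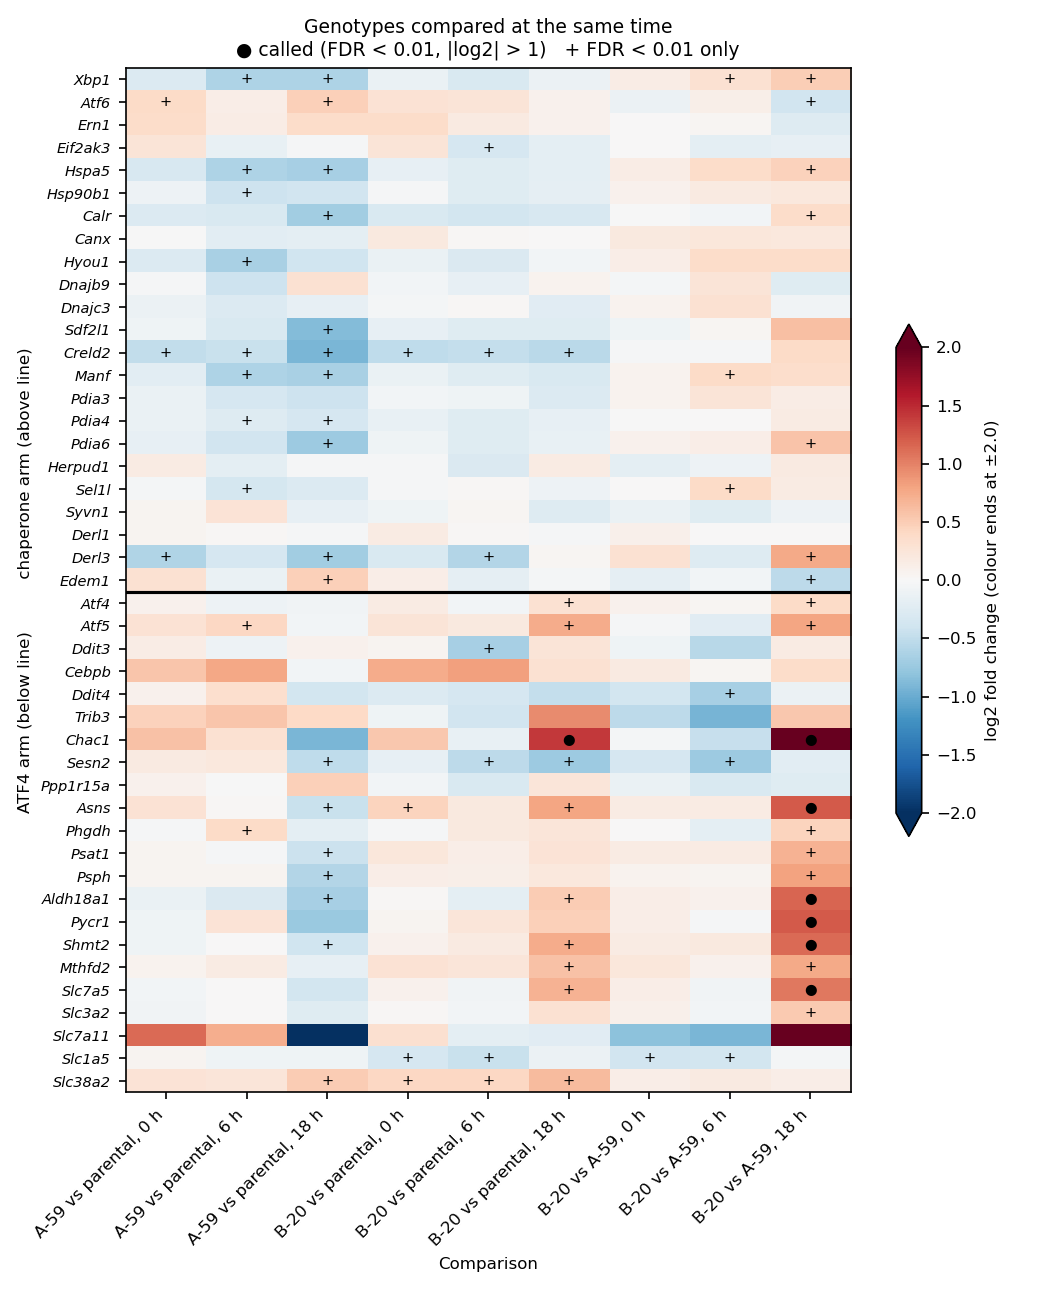
Log2 fold change of the 45 tested genes (rows) between genotypes at the same time (columns), as colour, with the chaperone arm above the line and the ATF4 arm below it. Filled circles mark called genes and plus signs genes with an FDR under 0.01 only. The calls are Chac1 in B-20 against parental cells at 18 h and 6 ATF4 arm genes in B-20 against A-59 at 18 h. The strong colours of Slc7a11 rest on libraries with 0 counts and did not pass the test.

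Compared directly, B-20 was above A-59 at 18 h in the ATF4 arm. There 6 members were called higher and 0 lower, where 1.98% of all genes were called higher and 2.83% lower. They were Chac1 (2.32 ± 0.39, adjusted p = 0.000344), Asns (1.23 ± 0.10, adjusted p = 3.57e-08), Pycr1 (1.23 ± 0.19, adjusted p = 0.000102), Aldh18a1 (1.16 ± 0.10, adjusted p = 1.04e-07), Shmt2 (1.14 ± 0.10, adjusted p = 8.28e-08) and Slc7a5 (1.06 ± 0.12, adjusted p = 2.01e-06). In each of the 6 genes both B-20 libraries lay above both A-59 libraries, which the call nearly implies and which adds no support. At an FDR under 0.01, 13 of 22 ATF4 arm genes were higher and 0 lower, and 5 of 23 chaperone arm genes were higher and 2 lower, where 8.08% and 8.09% of all genes were. Chac1 was no longer called with only the libraries compared, and Slc7a5 without the first A-59 or the second B-20 library at 18 h (0.95 and 0.96). At 0 and 6 h edgeR and DESeq2 called 0 members, with 5 and 18 at an unadjusted p under 0.05, where 3.85% and 5.82% of all genes were called.

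Whether the responses themselves differed from the parental response was tested with an interaction term. Of the 45 genes 0 passed in A-59 at 6 or 18 h or in B-20 at 6 or 18 h with edgeR or DESeq2, where 0.339%, 0.0326%, 0.131% and 0.163% of all genes were called in the same order. At an unadjusted p under 0.05 there were 10 and 17 genes in A-59 and 4 and 7 in B-20, at 6 and 18 h. The lowest adjusted p was that of Eif2ak3 in B-20 at 6 h, whose rise was smaller by 0.60 ± 0.12 (adjusted p = 0.0197) on the log2 scale. For Shmt2 in B-20 at 18 h the difference was 0.67 ± 0.14 (adjusted p = 0.0291) and for Asns in A-59 at 18 h it was -0.74 ± 0.14 (adjusted p = 0.0438). A different number of calls in a clone is therefore not a shown difference from the parental response in any single member. Between the clones, an interaction added after seeing the data called 2 members at 18 h, Asns and Aldh18a1 (3 with DESeq2), where 0.0326% of all genes were called. Neither gene was called with only the libraries compared. The same interaction called 0 at 6 h with edgeR and DESeq2, with 5 at an unadjusted p under 0.05, where 0.00653% were called.

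Other genes of the same pathways were listed beside the 46. Of 36 tested further genes of the ATF4 pathway, 19 were called lower and 0 higher in parental cells at 18 h (median -1.05), 21 lower in A-59 (median -1.20) and 8 lower in B-20 (median -0.78). Of all genes, 4.75%, 4.59% and 1.87% were called lower in the same order. In parental cells 11 of them were aminoacyl-tRNA synthetase genes, which charge tRNAs with amino acids, with log2 fold changes from -1.43 (Iars) to -1.02 (Wars). The others included Slc7a3, a cationic amino acid transporter (-2.40 ± 0.21), Bcat1, which transaminates branched-chain amino acids (-1.94 ± 0.15), Shmt1, the cytosolic counterpart of Shmt2 (-1.91 ± 0.11), and Cth, of cysteine synthesis (-1.70 ± 0.13). Bcat1 stood at 56.7 and 49.3 CPM at 0 h and 14.5 and 13.2 CPM after 18 h in parental cells, and at 3.93 and 5.19 CPM in A-59 at 18 h, where it was called lower than in parental cells (-1.61 ± 0.19, adjusted p = 4.24e-06). Of 37 tested further genes of the ER folding and secretory machinery, edgeR and DESeq2 called 0 in parental cells at 6 or 18 h, with 10 and 20 at an unadjusted p under 0.05.

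At an FDR under 0.01, 6 of these 37 ER genes rose and 8 fell in parental cells at 18 h, where 16.4% and 16.2% of all genes did, so that these shares are near those of all genes. By way of example, Lman1, a cargo receptor for export from the ER (-0.77), and Rpn1, a subunit of the oligosaccharyltransferase (-0.56), fell, whereas Creb3l2, a membrane-bound transcription factor (0.78), and Edem3, a mannosidase of ER-associated degradation (0.60), rose. Of the plasma cell markers, Irf4 (-1.70 ± 0.11, adjusted p = 3.3e-09) and Sdc1 (-2.29 ± 0.28, adjusted p = 3.13e-06) fell in parental cells at 18 h. Jchain rose (0.76 ± 0.21, adjusted p = 0.00604), from 4.20 and 3.72 CPM at 0 h to 6.33 and 7 CPM after 18 h. The sum of the 5 plasma cell markers stood at 168 and 170 CPM at 0 h and at 53.4 and 61.3 CPM after 18 h in parental cells, nearly all of it from Irf4, which fell from 161 and 163 CPM to 54.3 and 45.7 CPM. In the clones this sum was 126 CPM in both A-59 libraries and 134 and 144 CPM in the B-20 libraries at 0 h, and between 53.2 and 66.4 CPM after 18 h. The part of these markers in the responses of the 46 genes was not tested.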

How the data were processed

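RNA of 18 libraries (9 groups of 2) was sequenced with a non-stranded mRNA kit. The deposited values are raw counts per Ensembl gene, which the authors made with bcl2fastq 2.20.0.422, STAR 2.5 and featureCounts 1.5.0-p1 on GRCm38, per the submitters' processing notes and the labels. Whether reads shared by overlapping genes were counted is not given in the sources used here. The study gives 2 independent experiments, but whether a replicate number marks the same experiment in all groups is not stated. The p-values measure only the spread between these libraries.

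Counts were analysed with edgeR 4.0.16 in R 4.3.3 (filterByExpr, TMM scaling, quasi-likelihood F test with robust spread, 1 mean per group, all 18 libraries in 1 fit). Of 55487 genes 15318 were tested, and p-values were adjusted over all of them by the Benjamini-Hochberg method. The threshold (FDR under 0.01 and log2 fold change beyond 1) follows the study's methods. CPM are counts scaled to the TMM-adjusted library total. Symbols came from GENCODE and promoter windows of 250 bases from RefSeq. Figures were drawn with matplotlib 3.10.9 in Python 3.11.15. Scripts were tested on simulated data.

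Values per library are given for members called in at least 1 comparison, and other members are named where they had an FDR under 0.01 or complete a role. The 46 members, the further lists and the markers were chosen with earlier results of these data known. Alternatives were DESeq2 1.42.0, other filters, only the libraries compared, a correction for GC content, the replicate number as a block and leaving out each library.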

Additional observations from a re-analysis of the deposited data

Results flagged for a closer look

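In the fit of all 18 libraries, the response to stimulation at 18 h differed between the clones in 2 ATF4 arm genes. The interaction term of edgeR's quasi-likelihood test behind these calls was added after seeing the data. The B-20 response minus the A-59 response was 1.07 ± 0.13 on the log2 scale for Asns (adjusted p = 0.00152) and 1.02 ± 0.14 for Aldh18a1 (adjusted p = 0.00271), where 0.0326% of all genes were called. The responses were -2.28 in A-59 and -1.21 in B-20 for Asns, and -2.11 and -1.10 for Aldh18a1. Shmt2 had an FDR under 0.01 without being called (0.99 ± 0.14, adjusted p = 0.00271). The call for Asns was lost with only the libraries compared. It was also lost without the first A-59 library at 18 h (0.99) or the second B-20 library at 0 h (1.07). That for Aldh18a1 was lost with only the libraries compared and with the GC correction, with or without the block. It was also lost without any of 5 single libraries (0.91 to 1.02). These were either of B-20 at 0 h, the first of A-59 at 0 or 18 h, and the second of B-20 at 18 h. At 6 h edgeR and DESeq2 called 0 members, with 5 at an unadjusted p under 0.05.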

How the results depend on the processing

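Of 46 calls of members, 31 held in every alternative and 15 were lost in at least 1, with 0 reversed. Counts of members called changed as follows, and the cause was not tested. In A-59 at 6 h the count was 0 with only the libraries compared, with the GC correction and with it and the replicate block. For B-20 against parental cells it was 1 at 0 h and 1 at 6 h with the GC correction, with or without the block, and 0 at 18 h with only the libraries compared. For the B-20 minus A-59 response at 18 h it was 5 without a filter, 0 with only the libraries compared and 1 with the GC correction. Differences between the 2 replicates of a group correlated weakly with those of other groups. The correlations were -0.026 to 0.32 (median 0.078) over 36 pairs of groups, 14 of them over 0.1. A pairing by replicate number was thus neither shown nor excluded. The replicate block gave 12 calls at 18 h for parental cells, 18 for A-59, 7 for B-20 and 3 for the B-20 minus A-59 response, against 11, 17, 7 and 2.

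Medians without a filter on low counts were -0.20 (chaperone) and -1.10 (ATF4) in parental cells and -1.40 (ATF4) in A-59 at 18 h. At 18 h they were -0.20 for the ATF4 arm of A-59 against parental cells, -0.07 (chaperone) and 0.39 (ATF4) for B-20 against parental cells, and 0.75 (ATF4) for B-20 against A-59. With the GC correction they were -0.22 (chaperone) and -0.88 (ATF4) in B-20 at 18 h. For the ATF4 arm of B-20 against parental cells they were 0.18, 0.06 and 0.40 at 0, 6 and 18 h, and against A-59 0.16 at 0 h and 0.05 at 6 h, where the chaperone arm had 0.03. At 6 h both ATF4 values thus changed sign from -0.06 and -0.07.

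Leaving out 1 library gave 0 to 2 calls in A-59 at 6 h and for A-59 against parental cells at 18 h, 0 to 1 for B-20 against parental cells at 18 h and 0 to 3 for the B-20 minus A-59 response. ATF4 medians ranged from -1.11 to -0.96 in parental cells at 18 h and from -0.12 to 0.15 in A-59 at 6 h. Against parental cells they ranged from -0.01 to 0.19 (6 h) and -0.39 to -0.20 (18 h) in A-59, and from 0.02 to 0.17, -0.09 to 0.05 and 0.31 to 0.48 in B-20 at 0, 6 and 18 h. For B-20 against A-59 they were -0.02 to 0.11, -0.23 to 0.07 and 0.59 to 0.74. Chaperone medians ranged from -0.04 to 0.10 in A-59 at 6 h, -0.49 to -0.35 in A-59 and -0.42 to -0.21 in B-20 at 18 h. They ranged from -0.14 to -0.03 for A-59 against parental cells at 0 h, and at 18 h from -0.23 to -0.05 for B-20 against parental cells and 0.10 to 0.27 against A-59.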
